A study of Drosophila melanogaster with 8 samples.

Results

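Heads of male flies that lack *Obp56h* were compared with heads of male *CSB* flies across all genes. The comparison is between 4 of the 8 RNA libraries of the series, 2 from *Obp56h*-/- males and 2 from *CSB* males. Each library was made from a pool of 50 heads. The female libraries entered the same fit, so its p-values draw on all 8 libraries. Of 17490 genes with a count, 13536 had enough reads to be tested. *Obp56h*-/- males carried a CRISPR/*Cas9* deletion made in the *CSB* background, in which the gene, cut out between 2 guide RNAs, was replaced by a *DsRed* marker driven in the eye by *3XP3*, with *loxP* sites and an *attP* site. *CSB* males (*Canton S-B*) carried neither the deletion nor the marker. Flies of both genotypes were 3 to 5 days old and were reared alike, with no treatment. The null flies came from 1 deletion line, so the loss of *Obp56h*, the inserted cassette and any other difference between the line and *CSB* cannot be told apart. The sources used here do not say whether the pools of a genotype came from separate cultures, so the p-values measure the spread between these pools.

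Odorant-binding proteins are small secreted proteins that carry hydrophobic molecules, best known from the fluid around the olfactory and taste neurons, and many are also made outside the sense organs. The fly head holds the brain, the compound eyes, the antennae and mouthparts, muscle and a layer of fat body. The fat body secretes antimicrobial peptides into the hemolymph, under control of the Imd pathway, which answers mainly to Gram-negative bacteria, and of the Toll pathway, which answers mainly to fungi and Gram-positive bacteria. In whole heads, fewer cells of a type and less RNA per cell cannot be told apart.

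The libraries of *Obp56h*-/- males held 21722749 and 22516298 counted reads, and those of *CSB* males 17174109 and 19597588. The floor, taken as 3 reads, was between 0.134 and 0.165 CPM (counts relative to the TMM-scaled size of the library), and bounds set against it cover counting error only. The libraries held the defining markers of a male head: *ninaE*, the main rhodopsin, was between 19692 and 22165 CPM, *Orco*, the olfactory co-receptor, between 3.68 and 4.80 CPM, and *lncRNA:roX1*, a male dosage compensation RNA, between 2627 and 3251 CPM. *CSB* replicate 1 stood apart from the other 3, as did *CSB* replicate 1 of the females, which entered the same fit, from the other female libraries. The first principal component of the male libraries held 68.6% of the variance and gave it a score of 82.8, against scores between -40.7 and -5.10 for the others. Of 2129 genes without a read in either *Obp56h*-/- library, 222 had at least 10 reads in *CSB* replicate 1 and 18 in *CSB* replicate 2. The yolk protein genes, which the fat body of females expresses, summed to 78.5 and 53.2 CPM in the *Obp56h*-/- libraries and to 1445 and 54.0 CPM in *CSB* replicates 1 and 2. *Yp1* in *CSB* replicate 1 was at 3.76% of its mean in *CSB* females. The part of these reads in the results was not tested, and the comparison was therefore also made against each *CSB* library on its own.

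In all, 68 genes passed, 0.502% of the genes tested. Genes are said to pass here where the quasi-likelihood test of edgeR gave a p under 0.05 after Benjamini-Hochberg adjustment over all genes tested. Of these, 35 (0.259%) were higher and 33 (0.244%) were lower in *Obp56h*-/- males. At an unadjusted p under 0.05 there were 404 higher and 834 lower genes. With library size alone in place of TMM, 21 genes passed as higher and 33 as lower. Decreases were larger than increases, with a median log2 fold change of -2.13 over the 33 lower genes, of which 5 without a read in *Obp56h*-/- males were set at their bound, and of 1.43 over the 35 higher genes. The median over all genes tested was -0.05. A change of at least 4-fold was seen for 17 of the lower and 11 of the higher genes. Among the 68 genes, 58 were protein coding. For all 68, both *Obp56h*-/- libraries lay on the same side of both *CSB* libraries, which also held for 16.6% of all genes tested in the higher and 24.3% in the lower direction.

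Most of the 68 genes passed against each *CSB* library on its own. With *CSB* replicate 1 left out, 149 of 14330 genes passed (1.04%), and with *CSB* replicate 2 left out, 769 of 14824 (5.19%). The lone *CSB* library was then assumed to vary like the other groups. Of the 68 genes, 61 passed in both of these fits, namely all 35 higher genes and 26 of the 33 lower genes, and all 68 kept their sign. The log2 fold changes against the single *CSB* libraries were within 1 of each other for 57 of the 68 genes, with a median distance of 0.34. The other 11 were *CG10814*, *lncRNA:CR45239*, *CG15599*, *CG13731*, *pre-rRNA:CR45847*, *CecA2*, *CG12826*, *lncRNA:CR32553*, *CG17237*, *CecA1* and *CG9926*, several of them with few reads in 1 group. The 6 genes that no longer passed without *CSB* replicate 1 were all lower in *Obp56h*-/- males: *CG10814*, *Cul6*, *CG9109*, *CG4962*, *TotX* and *CG15553*. *CG12655*, also lower, no longer passed without *CSB* replicate 2. *CG15599* passed in both fits, but the size of its change depended on the library. It had 146 and 284 reads in *Obp56h*-/- males, against 3154 and 506 in *CSB* males, with a log2 fold change of -3.34 ± 0.65 (± standard error here and for the log2 fold changes that follow, adjusted p = 0.0203, edgeR), which was -1.28 without *CSB* replicate 1.

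**Figure D1:**
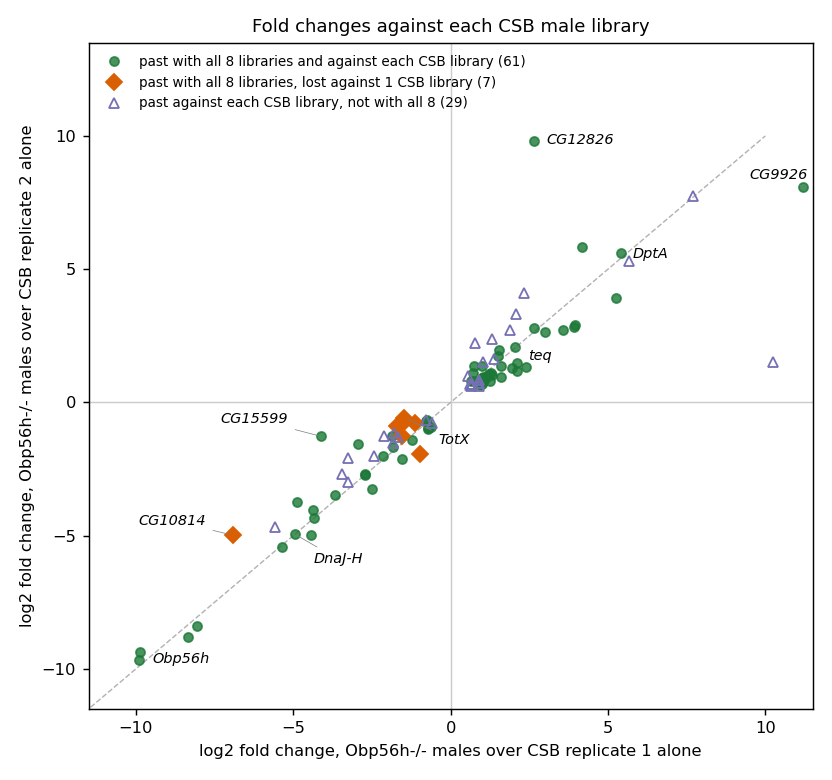
Log2 fold change of the 2 *Obp56h*-/- male libraries over *CSB* replicate 1 alone (horizontal) and over *CSB* replicate 2 alone (vertical), 1 symbol per gene, with the dashed line where both are equal. The 61 genes that passed with all 8 libraries and against each *CSB* library lie mostly along the line, *CG15599* and *CG12826* lie far from it, and the 7 genes lost against 1 *CSB* library (diamonds) were all lower in *Obp56h*-/- males. The positions of genes without reads in a group are fitted values that depend on the prior count.

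The targeted gene was absent from the null libraries. *Obp56h* (FBgn0034475, 2R:19815554-19816204 of the BDGP6 assembly) had 0 reads in each *Obp56h*-/- library, against 110 and 106 reads in *CSB* replicates 1 and 2. It was at least 40.9-fold lower (adjusted p = 4.01e-06, edgeR), measured against the floor. Of 35 odorant-binding protein genes tested, *Obp56h* alone passed, and the median log2 fold change of the 35 was -0.08. At an unadjusted p under 0.05 by edgeR's test, 3 were higher and 7 lower, *Obp56h* among the latter. Of all 13536 genes tested, 404 and 834 were. *Obp19d*, the most abundant of the 35, had 21121 and 24581 reads in *Obp56h*-/- males and 20341 and 17884 in *CSB* males, a log2 fold change of 0.07 (adjusted p = 0.927, edgeR).

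Several further genes were at or near 0 in the null libraries, and 4 of them lay in a row on chromosome arm 3L with no other tested gene between them. *CG33259* (3L:15407832-15408267), a coding gene, had 0 reads in each *Obp56h*-/- library, against 38 and 59 reads in *CSB* males, and was at least 18.1-fold lower (adjusted p = 0.00631, edgeR). *lncRNA:CR43625* (3L:15437201-15437713) had 0 reads in each, against 109 and 87, and was at least 37.3-fold lower (adjusted p = 1.52e-05, edgeR). *lncRNA:CR45395* (3L:15457491-15457878) had 2 and 0 reads, against 40 and 48, a ratio of 49.8 (95% interval 13.4 to 417, counting error only, here and for the ratios that follow). The last of the row, *lncRNA:CR45394* (3L:15457953-15458309), 74 bp further on, had 0 reads in each, against 31 and 44 (at least 14.0-fold lower). All 4 passed against each *CSB* library. The genes on both sides of this row did not pass. *cocoon*, the next tested gene, had 3 and 0 reads in *Obp56h*-/- males and 35 and 18 in *CSB* males (adjusted p = 0.299, edgeR), and *Toll-6*, on the other side, had a log2 fold change of 0.36 (adjusted p = 0.495, edgeR).

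Among the 29 lower genes outside this row, 12 lay on 3L. *CG10814*, on 2R, had 0 reads in each *Obp56h*-/- library, against 14 and 4 in *CSB* males (at least 3.52-fold lower, adjusted p = 0.0460, edgeR). *DnaJ-H* (2L:13163209-13166072), which encodes a co-chaperone of the Hsp40 type, had 44 reads in each *Obp56h*-/- library, against 1161 and 1323 in *CSB* males. Its log2 fold change was -4.99 (standard error 0.20, adjusted p = 4.03e-11, edgeR), and -4.94 and -4.95 with *CSB* replicate 1 or 2 left out. It shares exon sequence with *Sirt1*, an antisense neighbor, and since the strand setting of the counting is not given in the sources used here, reads of the pair may be mixed. *Sirt1*, with 2627 and 2868 reads in *Obp56h*-/- males and 2154 and 2264 in *CSB* males, had a log2 fold change of 0.13 (adjusted p = 0.822, edgeR). Of 33 heat shock protein and chaperone genes tested, *DnaJ-H* was the only one to pass, and the median of the list was 0.02. *Hsc70-4*, a constitutive Hsp70 with the most reads of the list, had a log2 fold change of -0.05, and *Hsp83*, the fly Hsp90, of -0.16.

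*CG17224*, predicted to encode a uridine phosphorylase of pyrimidine salvage, and *CG17264* lie 199 bp apart on 2L and fell to the same degree. *CG17224* (2L:3016441-3018308) had 177 and 184 reads in *Obp56h*-/- males, against 1014 and 1171 in *CSB* males, a log2 fold change of -2.77 ± 0.18 (adjusted p = 2.42e-08, edgeR). *CG17264* (2L:3018508-3021506) had 15 and 19 reads in *Obp56h*-/- males, against 96 and 107 in *CSB* males, and its log2 fold change was -2.75 ± 0.33 (adjusted p = 1.33e-04, edgeR). Exons of *CG17264* overlap *alpha4GT1* on the opposite strand, which had a log2 fold change of 0.04. Of 21 genes of pyrimidine and purine salvage and breakdown, *CG17224* alone passed, with a median of -0.11.

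On 3L, *Srg3* (3L:9443232-9446388) had 134 and 133 reads in *Obp56h*-/- males, against 1433 and 1437 in *CSB* males, a log2 fold change of -3.61 (adjusted p = 6.20e-10, edgeR). Transposon insertions overlap its exons in the annotation. *CG13924* had 26 and 21 reads, against 435 and 724 (log2 fold change -4.78, adjusted p = 4.70e-09, edgeR), and *CG8012* had 143 and 144, against 538 and 569 (-2.13, adjusted p = 8.70e-06). A pair of noncoding genes of the arm stood as far apart. *lncRNA:CR32368* had 84 and 56 reads, against 1248 and 1116 (log2 fold change -4.26, adjusted p = 1.20e-09, edgeR). *hpRNA:CR32207*, named as a hairpin RNA, a class that is cut into small interfering RNAs, had 0 and 3 reads, against 28 and 32 (22.6-fold lower, interval 7.38 to 113, adjusted p = 0.0255, edgeR). *hpRNA:CR33940*, a further hairpin RNA gene nearby, had 9 and 3 reads, against 50 and 47, and passed against each *CSB* library but not with all 8 libraries (adjusted p = 0.0660, edgeR). The groups did not overlap for any of these genes, which held for all 68 genes that passed and for 24.3% of all genes tested in the lower direction. *lncRNA:CR45239* (0 and 5 reads, against 66 and 34, log2 fold change -4.46), *snoRNA:CG32479-b* (12 and 6 reads, against 44 and 85, -2.97) and *CG13731* (40 and 27 reads, against 218 and 96, -2.43) passed as well. Of the 33 lower genes, 16 lay on 3L, which is 0.599% of the 2670 genes tested on that arm, against 0.244% of all genes tested. Without the row of 4 neighbors it was 0.450%.

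**Figure D2:**
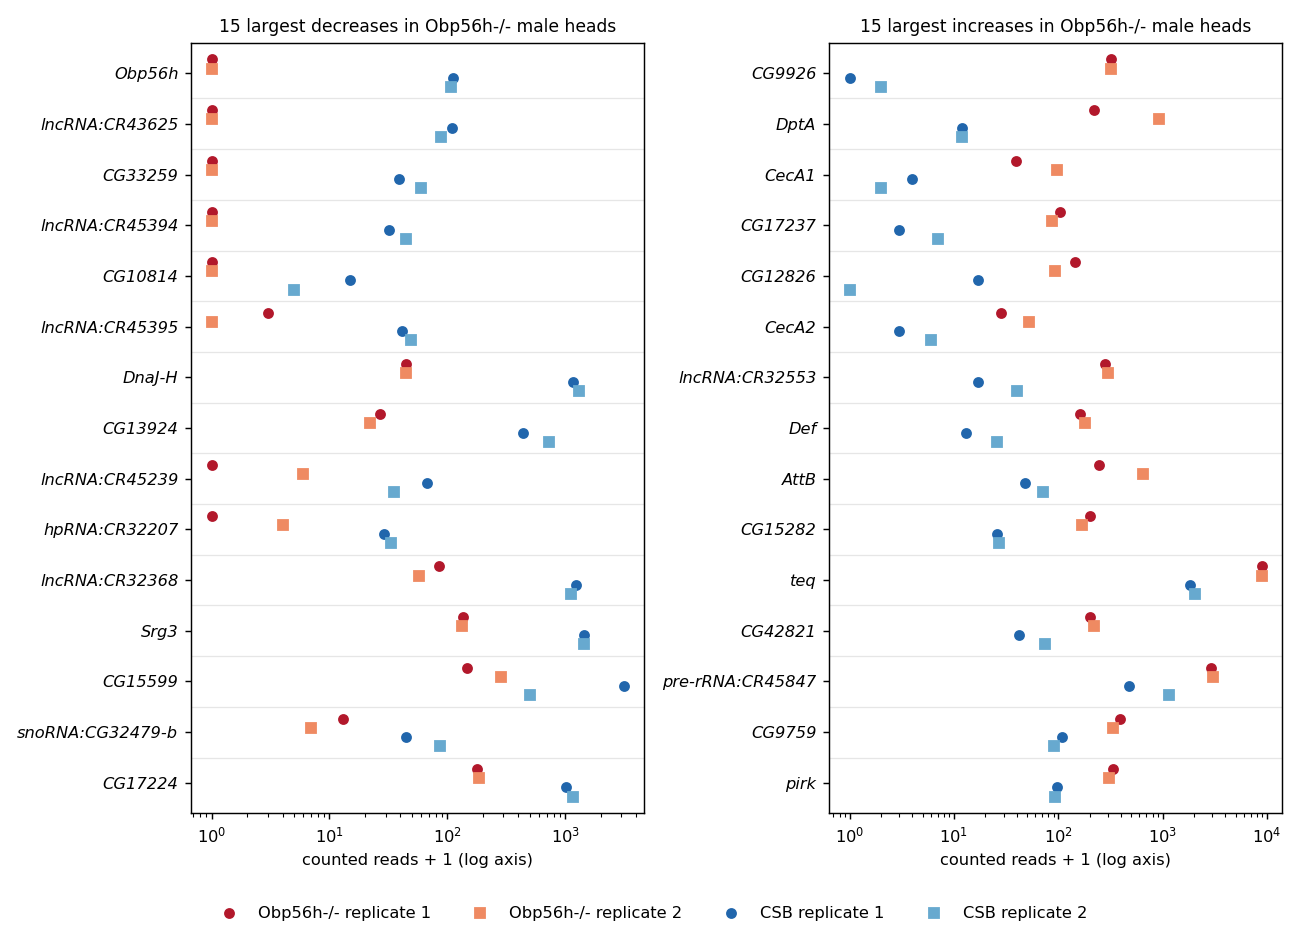
Counted reads plus 1 (log axis) in each male library for the 15 genes with the largest decreases (left) and the 15 with the largest increases (right) in *Obp56h*-/- males among those that passed. Red and orange symbols are the *Obp56h*-/- libraries and blue symbols the *CSB* libraries, and no gene has a red or orange symbol between its blue ones.

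The largest increase was that of *CG9926* (3R:13949454-13951138), which had 319 and 318 reads in *Obp56h*-/- males and 0 and 1 in *CSB* males. By the ratio of reads it was 563-fold higher, with a wide interval of 101 to 22283 since it rests on 1 read in *CSB* males (adjusted p = 7.63e-09, edgeR), and its exons overlap *CG31517* on the opposite strand. *CG17237* had 103 and 86 reads, against 2 and 6 (log2 fold change 4.36, adjusted p = 3.31e-04, edgeR), and *lncRNA:CR32553* had 277 and 301, against 16 and 39 (3.23, adjusted p = 1.24e-05). In these genes, which were taken from the largest increases, each *Obp56h*-/- library was far above both *CSB* libraries. *CG12826* had 145 and 92 reads, against 16 and 0, so its log2 fold change of 3.67 (adjusted p = 0.0114, edgeR) was 2.65 against *CSB* replicate 1 alone. The most abundant of the large increases was *teq* (3L:9074643-9092131), which encodes Tequila, a secreted protease related to mammalian neurotrypsin and needed for long-term memory. It had 8928 and 8896 reads in *Obp56h*-/- males, against 1820 and 2045 in *CSB* males, or 407 ± 13.4 CPM against 99.7 ± 0.403 CPM (mean ± SD, n = 2 each). Its log2 fold change was 2.03 (standard error 0.14, adjusted p = 8.00e-08, edgeR), and 2.09 and 2.05 with *CSB* replicate 1 or 2 left out.

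Several antimicrobial peptide genes of the Imd type were higher in *Obp56h*-/- males. Of 12 Imd-type genes tested, 5 rose (41.7%, against 0.259% of all genes tested) and 0 fell. A positive fold change was seen for 10 of the 12, against 5828 of all 13536 genes tested. The median log2 fold change of the 12 was 2.89. Of the 5 that rose, *Def* passed under every alternative run. *DptA*, *CecA1* and *CecA2* did not pass with limma voom, and *AttB*, *CecA1* and *CecA2* did not pass with males fitted on their own. *CecA2* was also lost with library size alone and without *Obp56h*-/- male replicate 2 or *Obp56h*-/- female replicate 1. Of 23 Toll-type peptide and bomanin genes, 0 passed, 3 had an unadjusted p under 0.05 and the median was 0.00. The difference between the lists was not tested. *DptA*, a diptericin against Gram-negative bacteria, had 218 and 915 reads in *Obp56h*-/- males, against 11 and 11 in *CSB* males (log2 fold change 5.48 ± 0.68, adjusted p = 1.90e-04, edgeR). *AttB*, an attacin, had 243 and 650, against 47 and 70 (2.75, adjusted p = 4.22e-04). *Def*, the fly defensin, had 162 and 180, against 12 and 25 (3.03, adjusted p = 6.90e-05). For *DptA* and *AttB*, *Obp56h*-/- replicate 2 was well above replicate 1, and for *Def* the replicates were close together. Without *CSB* replicate 1 or 2, the log2 fold change was 5.62 and 5.42 for *DptA* and 2.73 and 3.58 for *Def*, and that of *AttB* was 2.63 without *CSB* replicate 1.

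The cecropins were low but separate. *CecA1* had 38 and 96 reads in *Obp56h*-/- males, against 3 and 1 in *CSB* males (29.6-fold higher, interval 11.3 to 110.3, adjusted p = 0.00208, edgeR). *CecA2*, 882 bp from it, had 27 and 51, against 2 and 5 (log2 fold change 3.26, adjusted p = 0.0191, edgeR). Parts of these paralogs are near identical, and only unique alignments were counted. *CecB* (23 and 34 reads, against 0 and 0), *DptB* (225 and 1649, against 188 and 90) and *Dro*, which encodes drosocin (1351 and 3796, against 867 and 482), did not pass with all 8 libraries (adjusted p = 0.0689, 0.0523 and 0.0624, edgeR) but passed against each *CSB* library. *DptB* was at 10.5 and 73.6 CPM in *Obp56h*-/- males and at 10.3 and 4.38 CPM in *CSB* males. Its level in *Obp56h*-/- replicate 1 was thus close to that in *CSB* replicate 1. *CecB* was at least 8.34-fold higher. *AttA* had a log2 fold change of 1.41 (adjusted p = 0.463, edgeR), and *CecC* had a ratio of 19.9 (interval 5.20 to 169, adjusted p = 0.221, edgeR). *AttC*, with 490 and 1785 reads in *Obp56h*-/- males and 1239 and 987 in *CSB* males, and *edin*, with 11 and 16 against 21 and 5, overlapped between the groups.

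**Figure D3:**
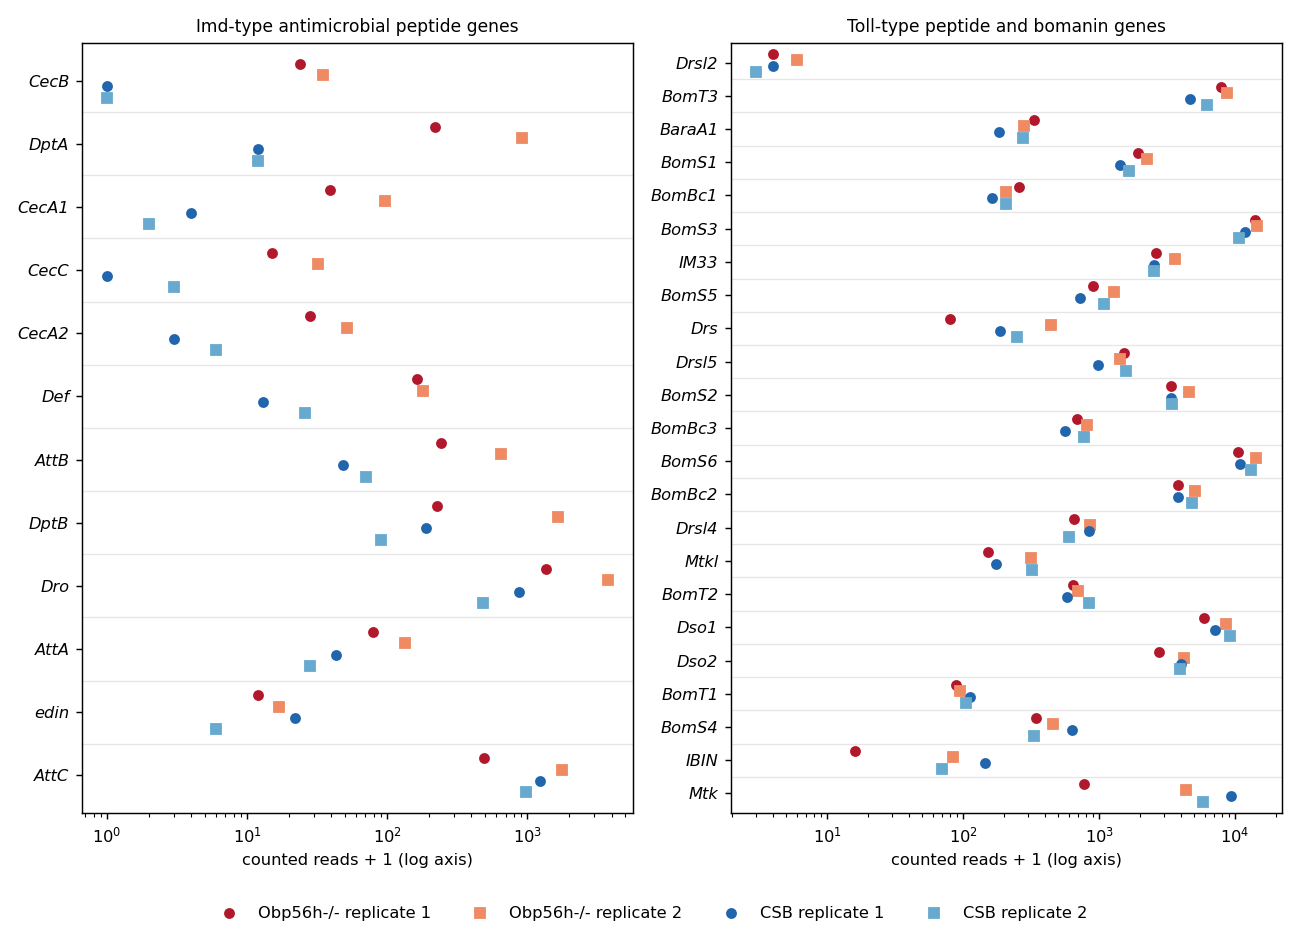
Counted reads plus 1 (log axis) in each male library for 12 Imd-type antimicrobial peptide genes (left) and 23 Toll-type peptide and bomanin genes (right), in order of log2 fold change. In 10 of the 12 Imd-type genes both *Obp56h*-/- libraries (red, orange) were above both *CSB* libraries (blue), in reads and in CPM. In CPM this held for 16.6% of all genes tested. The symbols of most Toll-type genes overlap.

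Among 23 components and regulators of the Imd pathway, *pirk* alone passed. It encodes an intracellular inhibitor of the pathway that the pathway itself induces, and had 335 and 302 reads in *Obp56h*-/- males, against 96 and 92 in *CSB* males, a log2 fold change of 1.58 ± 0.21 (adjusted p = 4.21e-04, edgeR). The NF-kB factor *Rel*, with 2006 and 2105 reads against 1386 and 1540, had 0.31 (adjusted p = 0.524, edgeR), and the median of the list was -0.07. Of 21 Toll pathway components, 0 passed by edgeR's test, 3 had an unadjusted p under 0.05 and the median was 0.00. On the Toll-type list the lowest fold change was that of *Mtk*, the antifungal peptide metchnikowin. It had 774 and 4326 reads in *Obp56h*-/- males, against 9380 and 5839 in *CSB* males (log2 fold change -1.80, adjusted p = 0.152, edgeR), and passed against each *CSB* library on its own. *BomS3*, the most abundant bomanin, had 0.16 and *BomT3* had 0.43 (adjusted p = 0.816 and 0.375, edgeR). *Drs*, which encodes drosomycin, had 79 and 445 reads in *Obp56h*-/- males, between which the 185 and 246 reads of *CSB* males fell. Blood cell markers summed to 633 and 664 CPM in *Obp56h*-/- males and to 541 and 730 CPM in *CSB* males. Fat body markers summed to 14081 and 14287 CPM against 13650 and 14199 CPM. Of 9 such markers, 4 had a positive and 5 a negative fold change. By edgeR's test, 2 in each direction had an unadjusted p under 0.05 and 0 passed. The part of either cell type in these changes was not tested.

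The Turandot genes encode secreted peptides induced by heat, bacteria and other stresses through JAK-STAT signalling. Of 15 genes of this list, *TotX* alone passed, as lower. It had 1683 and 1579 reads in *Obp56h*-/- males, against 3881 and 2377 in *CSB* males, a log2 fold change of -1.14 ± 0.24 (adjusted p = 0.0376, edgeR). Without *CSB* replicate 1 it was -0.58 and did not pass. *TotA*, the most abundant, had 13091 and 8781 reads, against 16052 and 16736 (-0.76, adjusted p = 0.240, edgeR), and *TotC* had 6851 and 4741, against 9924 and 8313 (-0.84, adjusted p = 0.132). Neither passed with all 8 libraries, although the groups of each did not overlap, as for 24.3% of all genes tested in the lower direction. *TotA* passed against each *CSB* library on its own (log2 fold change -0.65 and -0.79 without *CSB* replicate 1 or 2), and *TotC* did not pass without *CSB* replicate 1. The receptor gene *dome* and the factor *Stat92E* had log2 fold changes of 0.24 and 0.02. The median of the list was -0.56, and -0.07 without *CSB* replicate 1.

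Of the chemosensory families, 0 of 36 odorant receptor, 29 gustatory receptor and 49 ionotropic receptor genes passed by edgeR's test, with 3, 1 and 8 at an unadjusted p under 0.05, all lower. Their medians were -1.30, -0.85 and -1.02, and they were -0.09, -0.04 and -0.30 without *CSB* replicate 1. Antenna markers summed to 51.3 and 42.9 CPM in *Obp56h*-/- males and to 57.4 and 46.3 CPM in *CSB* males. Of 18 antennal enzymes and carriers, *Antdh* passed. It encodes antennal dehydrogenase, a short-chain dehydrogenase of the third antennal segment, and had 301 and 286 reads in *Obp56h*-/- males, against 726 and 1239 in *CSB* males, a log2 fold change of -1.90 ± 0.19 (adjusted p = 1.49e-05, edgeR). It was -2.11 and -1.54 with *CSB* replicate 1 or 2 left out. *Est-6*, the most abundant gene of that list, had a log2 fold change of -0.16.

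Genes of the cuticle and the lens changed in both directions. *Acp1*, which encodes an adult cuticle protein, had 277 and 448 reads in *Obp56h*-/- males, against 80 and 143 in *CSB* males, a log2 fold change of 1.53 ± 0.27 (adjusted p = 0.0105, edgeR). It stands at the head of a row on 2L: *CG7214* and *CG7203*, the next 2 tested genes, rose as well, by log2 fold changes of 1.09 and 0.85 (adjusted p = 0.0255 and 0.0114, edgeR). *Crys*, which encodes crystallin, a protein of the corneal lens, had 292 and 259 reads, against 387 and 538 (-0.91, adjusted p = 0.0264, edgeR). Of 84 cuticular protein genes, these were the 2 that passed, 1 in each direction. The median of the 84 was -0.70, and -0.21 without *CSB* replicate 1. *Cpr49Ac*, with 1 and 2 reads in *Obp56h*-/- males and 66 and 41 in *CSB* males, was 40.3-fold lower (interval 13.4 to 199) and passed against each *CSB* library but not with all 8 libraries (adjusted p = 0.0581, edgeR).

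A further row of higher genes lay on 2L. *CG15282* (2L:14712471-14713298) had 201 and 169 reads in *Obp56h*-/- males, against 25 and 26 in *CSB* males (log2 fold change 2.68 ± 0.35, adjusted p = 3.31e-04, edgeR). *CG34165*, 451 bp further on, had a log2 fold change of 0.98 (adjusted p = 0.0245, edgeR). *CG34166*, the most abundant of the row, was at 453 and 496 CPM in *Obp56h*-/- males, against 162 and 252 CPM in *CSB* males (log2 fold change 1.20, adjusted p = 0.0115, edgeR). Between the last 2 lie *CG42685* and *CG31775*, which had few reads in the null libraries (7 and 0 for *CG42685*, against 67 and 16, and 0 and 1 for *CG31775*, against 2 and 6) and did not pass. Of the 35 higher genes, 11 lay on 2L, which is 0.442% of the 2486 genes tested there, against 0.259% of all genes tested.

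Enzyme genes that passed came from several pathways. *CG10621*, predicted to encode a homocysteine S-methyltransferase, had 2139 and 2749 reads in *Obp56h*-/- males, against 1268 and 1117 in *CSB* males, a log2 fold change of 0.84 ± 0.17 (adjusted p = 0.0231, edgeR). Of 17 genes of the sarcosine and methionine cycle it alone passed, 14 had a positive fold change and the median was 0.26. Over all genes tested, 5828 of 13536 had a positive fold change. *Gnmt*, which transfers methyl groups from S-adenosylmethionine to glycine, had 1518 and 2048 reads, against 1167 and 1212 (0.40, adjusted p = 0.482, edgeR). *Bcat*, the branched-chain amino acid aminotransferase, rose by a log2 fold change of 0.73 (adjusted p = 0.0264, edgeR), and *Naxe*, an epimerase that repairs damaged NADH and NADPH, by 1.13 (adjusted p = 0.0192). Exons of *Naxe* overlap *CG2972* on the opposite strand. *CG9451*, predicted to encode an acid phosphatase, rose by 1.14 (adjusted p = 0.00881, edgeR), whereas *CG9449*, its neighbor, had a log2 fold change of -0.21. *CAH9*, a carbonic anhydrase gene, had 232 and 254 reads in *Obp56h*-/- males, against 355 and 387 in *CSB* males (-0.79, adjusted p = 0.0238, edgeR).

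Detoxification and metal response genes did not pass. Of 87 cytochrome P450 genes, 0 passed by edgeR's test, with 12 at an unadjusted p under 0.05 and a median of -0.11. Of 33 glutathione S-transferase genes and 31 UDP-glycosyltransferase genes, 0 passed, with 3 and 7 at an unadjusted p under 0.05. *MtnD*, a metallothionein gene, had 182 and 223 reads in *Obp56h*-/- males and 95 and 88 in *CSB* males (log2 fold change 0.96, adjusted p = 0.107, edgeR), and the other 5 genes of that list had adjusted p of 0.509 or more.

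Further genes rose by smaller folds. *fwe*, which encodes Flower, a membrane protein of synaptic vesicles and of cell competition, was at 433 and 404 CPM in *Obp56h*-/- males, against 213 and 231 CPM in *CSB* males (log2 fold change 0.91, adjusted p = 0.00154, edgeR). *Neto*, an auxiliary subunit of glutamate receptors, was at 42.6 and 46.1 CPM, against 22.1 and 24.0 CPM (0.94, adjusted p = 0.00255). *Dpp10*, of the dipeptidyl peptidase family, was at 552 and 531 CPM, against 291 and 353 CPM (0.75, adjusted p = 0.0224). *ctp*, the dynein light chain of the LC8 type, was the most abundant gene to pass, at 1108 and 1086 CPM against 716 and 660 CPM (0.67, adjusted p = 0.0351). *esc*, a subunit of the Polycomb repressive complex that methylates histone H3, rose by a log2 fold change of 0.95 (adjusted p = 0.0179, edgeR), and *MEP-1*, a zinc finger protein that acts with the remodeler Mi-2, by 1.02 (adjusted p = 0.00376). *Fign*, a microtubule-severing ATPase, rose by 0.96 (adjusted p = 0.0265, edgeR), and its exons overlap *CG3277* on the opposite strand. Of 10 marker genes of neurons, 0 passed by edgeR's test, and all 10 had a positive fold change, with a median of 0.28. Over all genes tested, 5828 of 13536 had a positive fold change. The neuron markers summed to 11702 and 11707 CPM in *Obp56h*-/- males and to 9363 and 9897 CPM in *CSB* males. Their part in these increases was not tested.

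Signalling genes of the brain did not pass. Of 45 neuropeptide and peptide hormone genes, 0 passed by edgeR's test and the median was 0.13. At an unadjusted p under 0.05 by that test, 9 were higher and 1 lower, against 404 and 834 of all 13536 genes tested. *Nplp3*, the most abundant, had 18892 and 23771 reads in *Obp56h*-/- males and 14849 and 14989 in *CSB* males (log2 fold change 0.33, adjusted p = 0.495, edgeR). Of 29 genes of dopamine, octopamine and serotonin signalling and 19 of insulin signalling, 0 passed, with 2 in each list at an unadjusted p under 0.05. Of 16 circadian clock genes, 0 passed and *to*, which encodes the clock output protein Takeout, had the lowest adjusted p (214 and 192 reads, against 302 and 306, log2 fold change -0.76, adjusted p = 0.0647, edgeR). Of 30 rhodopsin and phototransduction genes and 19 eye pigment genes, 0 passed, with 0 and 2 at an unadjusted p under 0.05. Photoreceptor markers summed to 30865 and 28578 CPM in *Obp56h*-/- males and to 28755 and 28798 CPM in *CSB* males.

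Of 78 cytoplasmic ribosomal protein genes, 75 had a negative fold change, with a median of -0.31, and 0 passed by edgeR's test, with 35 at an unadjusted p under 0.05. Over all genes tested the median was -0.05 and 56.9% had a negative fold change. At an unadjusted p under 0.05 by edgeR's test, 404 of all 13536 genes tested were higher and 834 lower. The median of these 78 was -0.21 and -0.26 with *CSB* replicate 1 or 2 left out, -0.29 with RLE factors and -0.40 with library size alone. The 70 mitochondrial ribosomal protein genes had a median of 0.00. Of 6 genes tested on the rDNA sequence of the assembly, 2 passed, both as higher, and the median of the 6 was 0.37. These 2 were precursors of ribosomal RNA: *pre-rRNA:CR45845* rose by a log2 fold change of 1.43 and *pre-rRNA:CR45847* by 1.71 (adjusted p = 0.00214 and 0.0114, edgeR). The latter did not pass with DESeq2, library size alone or males fitted on their own. Copies of these precursors are near identical, and the authors had depleted ribosomal RNA from the libraries and screened the reads for it.

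Small structured RNAs differed between the *CSB* libraries. Of 28 small nuclear RNA genes, 0 passed by edgeR's test, 4 had an unadjusted p under 0.05 and the median was 0.44. *snRNA:U5:38ABa*, a component of the spliceosome, had 197 and 144 reads in *Obp56h*-/- males, against 3 and 233 in *CSB* males. *snRNA:U5:63BC* had 104 and 305, against 7 and 232, and *snRNA:U5:23D* had 240 and 303, against 17 and 208. In these 3 genes, named after their values were seen, *CSB* replicate 1 alone was low. Others differed the opposite way, such as *snRNA:U11*, at 756 and 657 CPM in *Obp56h*-/- males and at 762 and 435 CPM in *CSB* males. *snRNA:U1:82Eb* had 16 and 107 reads, against 14 and 9, and passed as higher against each *CSB* library but not with all 8 libraries (adjusted p = 0.240, edgeR), although the groups overlapped in CPM. Of 151 snoRNA genes, *snoRNA:CG32479-b* passed, and the median of the list was 0.09, which was -0.24 without *CSB* replicate 1 and 0.59 without *CSB* replicate 2. *snoRNA:CG32479-a*, of the same host gene by its name, had 210 and 122 reads, against 0 and 57, and did not pass with all 8 libraries (log2 fold change 2.41, adjusted p = 0.132, edgeR) but passed as higher against each *CSB* library. Of 1295 long noncoding RNA genes, 1 rose and 5 fell (0.463% in all, near the 0.502% of all genes tested), with a median of -0.34, which was -0.04 without *CSB* replicate 1. Of 18 mitochondrially encoded genes, 0 passed by edgeR's test and 7 had an unadjusted p under 0.05, 4 of them higher and 3 lower. *mt:Cyt-b*, a subunit of complex III, had 64116 and 56689 reads in *Obp56h*-/- males, against 14169 and 45565 in *CSB* males. Its log2 fold change of 0.88 was 0.37 without *CSB* replicate 1. That of *mt:CoIII* was 0.64, and 0.56 without that library, whereas that of *mt:ND1* was 0.71, and 1.16 without it.

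**Figure D4:**
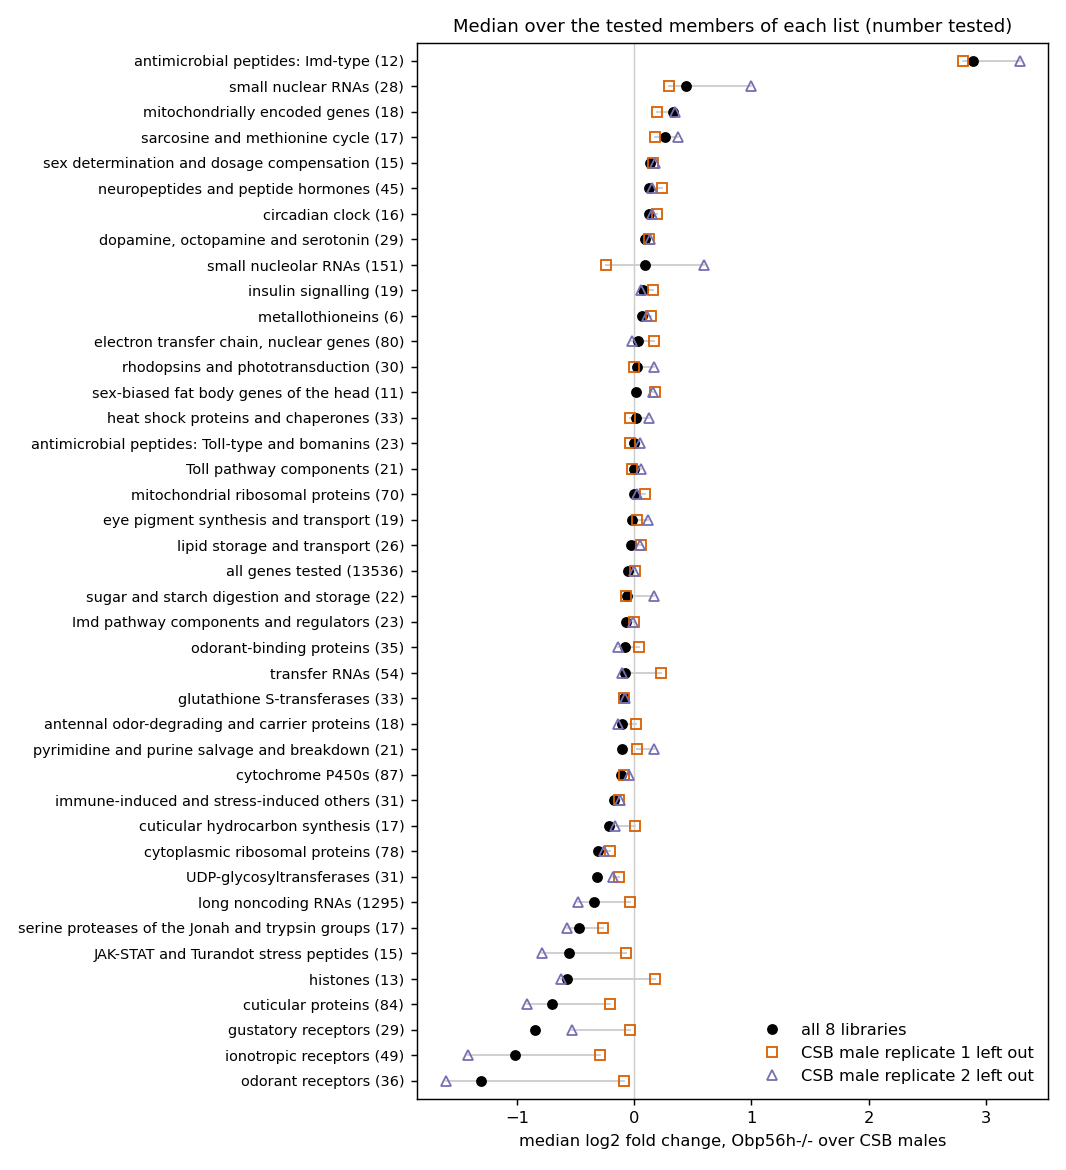
Median log2 fold change, *Obp56h*-/- over *CSB* males, over the tested members of each list by function or RNA class (number tested in parentheses, cell type markers not drawn), with all 8 libraries (dots) and with *CSB* male replicate 1 (squares) or 2 (triangles) left out. Of the lists drawn, the Imd-type peptides lie farthest from 0 in all 3 fits, whereas the medians of the odorant, gustatory and ionotropic receptors lie between -0.30 and -0.04 without *CSB* replicate 1.

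A further 29 genes passed against each *CSB* library on its own and not with all 8 libraries, 18 of them higher and 11 lower. Beside the immune genes given above they held a few storage and metabolic genes, given here as examples. Among these, *Lsp2* and *tobi* are on the list of fat body markers. Of the 9 markers tested, 4 had a positive and 5 a negative fold change, with a median of -0.18. *Lsp2*, a larval serum storage protein still made by the adult fat body, had 2122 and 3346 reads in *Obp56h*-/- males, against 1353 and 569 in *CSB* males (log2 fold change 1.29, adjusted p = 0.150, edgeR). *tobi* (target of brain insulin), an alpha-glucosidase gene of the fat body, had 1374 and 1461, against 649 and 833 (0.76, adjusted p = 0.362). *Cyp4e3*, a cytochrome P450 gene, had 91 and 168, against 42 and 41 (1.45, adjusted p = 0.0647). For each of these 3 genes both *Obp56h*-/- libraries were above both *CSB* libraries, which held for 16.6% of all genes tested. The 3 were taken from genes that passed as higher against each *CSB* library, a choice that favors such separation. *bol*, which encodes the RNA-binding protein Boule, had 17354 and 17486 reads, against 9232 and 10603 (0.64, adjusted p = 0.0647, edgeR). Among the lower genes, *CG3655* had 4774 and 3251 reads in *Obp56h*-/- males, against 11826 and 8669 in *CSB* males (-1.54, adjusted p = 0.118, edgeR).

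In female heads, where 1.03% of the genes tested passed, 47 of the 68 genes also passed, and 66 had the same sign as in males. The effects in the sexes come from 1 fit, so these counts are not independent. The difference between the sexes was tested directly, and 0.0369% of the genes tested passed. Among the 68 this was *CG4757*, which had 463 and 378 reads in *Obp56h*-/- males, against 1263 and 1299 in *CSB* males, a log2 fold change of -1.78 ± 0.18 (adjusted p = 1.08e-05, edgeR). In females its log2 fold change was -0.30, and the difference between males and females was -1.48 (adjusted p = 0.0342, edgeR). *CAH9*, *CG15553* and *TotX* had log2 fold changes of 0.08, 0.20 and -0.07 in females, and for each the difference between the sexes did not pass.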

How the data were processed

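RNA from heads was sequenced after depletion of ribosomal RNA. According to the methods, the authors trimmed and filtered the reads with AfterQC, screened them for ribosomal RNA with bbduk, aligned them by GSNAP to release 6 of the *D. melanogaster* genome and, with Subread, counted reads that aligned uniquely to a gene. The authors deposited raw counts for 17490 genes in 8 libraries, with the length of each gene, and 0 columns of values were left out here. Tool versions, the strand setting and the treatment of overlapping genes are not given in the sources used here. Libraries were grouped by the genotype and sex in their labels.

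Tests were run on the counts with edgeR 4.0.16 (R 4.3.3): filterByExpr (smallest count 10, 4 groups of 2 libraries), TMM factors, 1 quasi-likelihood fit over all 8 libraries, a contrast of genotype within males, and Benjamini-Hochberg adjustment with a threshold of 0.05. A contrast of the genotype effects in males and females tested the difference between the sexes. Folds against a group without reads are bounds against a floor of 3 reads per library, and those against a group with at most 3 reads in each library, but not 0 in all, are ratios of summed reads with exact binomial intervals. The fit was also run on simulated counts, drawn from its own mean levels and spread with no library set apart. That run therefore does not bear on the deviation of *CSB* replicate 1. Positions and classes came from Ensembl's annotation of the BDGP6 assembly, which held 17288 of the genes, and 202 were not found. Only symbols of that annotation are used, so some differ from those of the authors' release.

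Full values are given for *Obp56h* and most of the 15 largest increases and decreases among genes that passed without overlap of the libraries. They are also given for members that passed of 40 lists of genes by function or RNA class. Among the increases, *CG42821* and *CG9759* are shown only as symbols in the plot. Examples that did not pass are the most abundant members of a list, or any member of a list of at most 12 tested genes, and others were named after their values were seen. A further 14 lists held cell type markers. The genes and lists were chosen with earlier results of these data known. *Hpd*, *nemy* and *Ugt49B1* were taken off lists in which they had been misplaced, after their values were seen. The alternatives were DESeq2 1.42.0, limma 3.58.1 voom with sample weights, edgeR's likelihood ratio test, RLE factors, library size alone, counts per kb, other filters on low counts, males alone, the replicate number as a block, and each library left out in turn. Sequences were not used here. Python 3.11.15 with matplotlib 3.10.9 drew the plots.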

Additional observations from a re-analysis of the deposited data

Results flagged for a closer look

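The effect of genotype differed between males and females for 5 genes by edgeR's test of that difference (adjusted p under 0.05). For *CG4757*, described above, the log2 fold change in males minus that in females was -1.48. For *Sardh*, sarcosine dehydrogenase, it was 2.42 (adjusted p = 0.0442), with log2 fold changes of 0.77 in males and -1.65 in females, and 505 and 583 reads in *Obp56h*-/- males against 232 and 335 in *CSB* males. For *Mdr50*, a multidrug transporter gene, it was 2.22 (adjusted p = 0.0342), with a log2 fold change of 0.22 in males and a negative one in females. For *tRNA:Tyr-GTA-1-9*, which lies within exons of *Ntl* on the same strand, it was 12.50 (adjusted p = 0.0251), a fitted value that depends on the prior count, and its reads in males were 2 and 252 in *Obp56h*-/- replicates 1 and 2 and 2 and 3 in *CSB* replicates 1 and 2, so that 1 library carried the effect in males. For FBgn0085757, which the annotation used here does not name, it was 4.29, with 0.32 in males and -3.97 in females. Only *CG4757* passed in males as well.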

How the results depend on the processing

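The 68 genes that passed in males, 35 higher and 33 lower, became 169 (61 and 108) with a likelihood ratio test, 115 (57 and 58) with DESeq2, 156 (62 and 94) with counts per kb and a likelihood ratio test, 279 (111 and 168) without a filter on low counts, and 28 (13 and 15) with males fitted on their own. With library size alone 21 genes were higher, and with at least 10 counts in every male library 21 were lower. Leaving out 1 library gave 48 to 769 genes, 25 to 406 higher and 23 to 363 lower, and the count moved over 1.5 times without *CSB* male replicate 2 (769), *CSB* male replicate 1 (149) or *Obp56h*-/- female replicate 2 (116). Of the 68 genes, 60 were kept by DESeq2, 56 by voom, 46 with library size alone, 27 of 67 with males on their own and 42 without *Obp56h*-/- male replicate 2, and 0 reversed under any alternative. *DptA*, *CecA1*, *CecA2* and *CG9926* did not pass with voom.

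With the replicate number as a block, 128 genes passed (54 higher and 74 lower), all 68 among them. The deviations of same-numbered male libraries from their group means had a correlation of 0.0443 across genes. Across the 6 pairs of groups it was between -0.0122 and 0.0880, except for *CSB* males and *CSB* females (0.533), whose replicates 1 deviated together. The labels do not pair the pools. The 5 genes with a sex difference became 30 with a likelihood ratio test, 18 with the block, and 1 to 214 when 1 library was left out (1 without *CSB* female replicate 1, 214 and 61 without *CSB* male replicate 2 or 1, 34 without *Obp56h*-/- male replicate 1). The causes were not tested. With 2 pools a group, and 3 reads as the floor, small changes in low genes were not detectable.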
